A study of Mus musculus with 65 samples.

Results

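The promoters described here are those of Rbm42, Rnf5, Tmem127, Ciao1, Narf and Tfrc, 6 genes picked because their accessibility in newly replicated chromatin fell among the most when cells had been treated with DRB. They stand among 24603 gene symbols that could be paired with a transcription start site (TSS) in the deposited tables. Tmem127 and Ciao1 are divergent neighbours that start 92 bp apart, and both fall in 1 window, so the 6 genes give 5 windows of 1 kb. They were chosen by the difference between the DRB and DMSO libraries of the nascent EdU fraction, so those values are given below as a description, without a test.

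Behind a replication fork the chromatin of a promoter is taken apart and rebuilt on both daughter strands, with nucleosomes laid down first and nucleosome-free gaps reopened as transcription factors and RNA polymerase II return. DRB inhibits CDK9, the kinase of P-TEFb that releases paused polymerase into elongation. Triptolide acts at an earlier step, on the XPB helicase of TFIIH that opens promoter DNA. The series is titled as a study of transcription restart and chromatin accessibility after replication, and the inhibitor experiment compares accessibility with and without these drugs.

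The cells were E14TG2a mouse embryonic stem cells, a feeder-independent line of 129/Ola origin, grown in serum with LIF on gelatin. In repli-ATAC-seq, EdU, a thymidine analogue, marks new DNA, the Tn5 transposase cuts accessible chromatin, and the EdU-carrying fragments are captured on streptavidin. In the inhibitor experiment cells received DMSO, DRB or triptolide for 2 h, then 20 uM EdU for 10 min, and were collected at once (nascent) or after a 2 h chase in 10 uM thymidine. Both the captured EdU fraction and the uncaptured supernatant (unbound, mostly chromatin not replicated during the pulse) were sequenced, with 3 libraries in each of the 12 groups. The sources used here give neither the drug doses nor whether a drug was present in the chase. The labels do not say whether replicate libraries are separate cultures, and the p-values cover library-to-library spread that may be technical.

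The promoter sequences are shown because 4 of the 5 windows could be matched to RefSeq promoters (build GRCm38.p6) and because they place short promoter motifs at the sites whose accessibility is described. Capitals mark exact matches on either strand to the CCAAT box (letters CCAAT), to the GC box (letters GGGCGG), to the core of an ETS site (letters CGGAAG) and to the core of a CRE (letters TGACG). The E-box CACGTG and a TATA box spelled TATAAA were searched too. For Narf and Tfrc the 250 bases before the RefSeq gene start are printed, for Rbm42 the 161 bases before the TSS of the deposited tables, and for Tmem127 and Ciao1 the 87 bases between the divergent starts.
Narf, chr11:121236986-121237235, plus strand: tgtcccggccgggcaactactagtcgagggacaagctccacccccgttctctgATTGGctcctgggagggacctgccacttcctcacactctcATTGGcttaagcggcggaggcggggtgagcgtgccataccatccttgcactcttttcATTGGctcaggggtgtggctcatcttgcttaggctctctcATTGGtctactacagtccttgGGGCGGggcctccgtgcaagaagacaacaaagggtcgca
Tfrc, chr16:32608646-32608895, plus strand: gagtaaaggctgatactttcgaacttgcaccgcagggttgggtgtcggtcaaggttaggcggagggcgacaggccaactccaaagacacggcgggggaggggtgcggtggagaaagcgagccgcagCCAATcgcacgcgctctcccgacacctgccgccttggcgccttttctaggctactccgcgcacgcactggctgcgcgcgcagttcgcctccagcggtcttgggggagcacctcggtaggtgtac
Rbm42, chr7:30650318-30650478, minus strand: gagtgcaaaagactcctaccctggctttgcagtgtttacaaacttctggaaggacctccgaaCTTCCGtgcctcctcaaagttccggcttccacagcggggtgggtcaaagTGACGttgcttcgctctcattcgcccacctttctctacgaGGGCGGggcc
Tmem127 and Ciao1, chr2:127247817-127247903, plus strand: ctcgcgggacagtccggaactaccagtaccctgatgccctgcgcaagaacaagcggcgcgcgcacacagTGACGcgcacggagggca

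The Narf promoter carries 4 CCAAT matches, all written as ATTGG on its own strand, and 1 GC box. Among 32851 promoters of 250 bases, 33.8% held at least 1 CCAAT match and 0.84% held at least 4. The Tfrc promoter has 1 CCAAT match. TGACG, found in 17.8% of all promoters, lies both in the Rbm42 stretch and between the starts of Tmem127 and Ciao1. In the Rbm42 stretch it lies beside an ETS core and a GC box (in 13.6% and 32.7% of all promoters). These shares refer to 250 bases, more than either stretch holds. Over 250 bases, printed only in part, Tmem127 held 4 TGACG matches and 1 GC box. The places of these matches are counted from a Tmem127 start other than the one given here, so part of these bases may lie inside the gene. At least 4 TGACG matches occurred in 0.137% of all promoters. Over 250 bases Ciao1 held 2 GC boxes, 1 ETS core and 1 TGACG. Rbm42 held 1 CCAAT, 1 GC box, 2 ETS cores and 1 TGACG. None of the matched promoters of 250 bases had TATAAA (12.4% of all promoters) or CACGTG (6.02%). The GC content of the printed stretches was 58.8% for Narf, 64.8% for Tfrc, 56.5% for Rbm42 and 66.7% between Tmem127 and Ciao1, against a median of 52.4% over all promoters. A match says only that these letters occur there.

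Levels are given in RPM, which scales each library to the same read total, recovered from the deposited log2(RPM + 1) values, for the 1 kb window centred nearest each TSS on build mm10. The EdU libraries held 1.30 M to 5.55 M reads and the unbound libraries 2.35 M to 14.36 M. The smallest was the second nascent DRB EdU library, in which 1 read is worth 0.77 RPM and a count of 0 still allows 2.31 RPM (3 reads, counting error only). Over all TSSs the mean level was 4.73 to 4.91 times that of windows far from peaks in nascent DMSO EdU libraries. It was 2.83 to 3.35 times with DRB and 2.60 to 2.89 times with triptolide. At 2 h it was 15.19 to 18.32, 11.53 to 14.08 and 6.4 to 7.0 times, in the same order. All 6 embryonic stem cell markers examined, among them Pou5f1, Nanog and Sox2, had a peak at the TSS in the steady-state list. So did Gata6 and Foxa2, but not Gata4, among 3 primitive endoderm genes, and 4 of 4 fibroblast genes. Summed over each list, the nascent DMSO unbound libraries held 56.8 to 62.9, 5.95 to 10.3 and 23.3 to 25.9 RPM. The part of other cells in the results was not tested. In bulk chromatin, fewer cells with an open promoter and less opening in each cell cannot be told apart.

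Tfrc encodes transferrin receptor 1, which takes up iron bound to transferrin. Its window (chr16:32608501-32609500, TSS at 32608920) held 5.77, 5.05 and 3.44 RPM in the nascent DMSO EdU libraries, from 10, 10 and 13 reads. With DRB it held 0.47, 0 and 1.51 RPM, from 1, 0 and 5 reads. Every DRB library was below every DMSO library, at 13.9% of the DMSO mean. With triptolide it held 2.09, 1.81 and 2.52 RPM, which made Tfrc the window least lowered by triptolide of the 5, at 45.0% of DMSO. After 2 h the DMSO libraries held 14.41, 11.51 and 12.17 RPM. The 2 h DRB libraries held 6.99, 7.09 and 7.25 RPM, and the 2 h triptolide libraries 2.88, 3.73 and 3.72 RPM. The 3 groups did not overlap at 2 h, with DMSO highest and triptolide lowest. The share of all TSSs separated in this way, or with triptolide below all DRB libraries, was not counted, here or for the windows below.

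Ciao1, the WD-repeat scaffold of the complex that delivers cytosolic iron-sulphur clusters to their target proteins, shares its window (chr2:127247501-127248500) with Tmem127, a membrane protein of endosomes and lysosomes that dampens mTORC1 signalling. Ciao1 starts at 127247816 on the minus strand and Tmem127 at 127247908 on the plus strand, so their accessibility cannot be separated here. The nascent DMSO EdU libraries held 6.34, 6.06 and 6.88 RPM (11, 12 and 26 reads) and the DRB libraries 0, 2.31 and 1.21 RPM (0, 3 and 4 reads). The nascent triptolide libraries held 1.74, 1.36 and 0.36 RPM, also below all of DMSO. At 2 h the levels were 17.78, 10.79 and 12.72 RPM in DMSO, 9.61, 7.09 and 11.60 RPM with DRB, and 3.46, 2.79 and 3.72 RPM with triptolide. Here the DRB libraries overlapped with DMSO, whereas the triptolide libraries lay below both.

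Rnf5 encodes a ubiquitin ligase of the endoplasmic reticulum membrane that works in the degradation of misfolded proteins. Its window (chr17:34603001-34604000, TSS at 34603690) had the fewest reads of the 5 in nascent DRB libraries. It held 5.19, 5.05 and 2.91 RPM (9, 10 and 11 reads) with DMSO and 0.47, 0 and 0.60 RPM (1, 0 and 2 reads) with DRB, or 8.2% of the DMSO mean. With triptolide the nascent libraries held 1.39, 0.91 and 1.44 RPM. After 2 h it held 15.33, 18.70 and 12.72 RPM in DMSO, 7.87, 7.09 and 9.86 RPM with DRB and 4.61, 4.04 and 2.66 RPM with triptolide. As at Tfrc, the 3 groups were separate at 2 h.

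Narf encodes a nuclear protein that binds the processed tail of prelamin A. Its window (chr11:121237001-121238000, TSS at 121237253) was the most accessible of the 5 in nascent DMSO EdU chromatin, with 9.22, 6.56 and 6.61 RPM (16, 13 and 25 reads). DRB libraries held 2.36, 0.77 and 0.91 RPM (5, 1 and 3 reads), and triptolide libraries 0.70, 0.91 and 1.80 RPM. Narf was thus low with both drugs, at 18% and 15.2% of DMSO. At 2 h the values were 14.41, 15.11 and 17.70 RPM with DMSO, 5.68, 7.09 and 9.28 RPM with DRB and 2.02, 2.79 and 1.86 RPM with triptolide, again in 3 separate groups.

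Rbm42 encodes an RNA-binding protein with an RNA recognition motif. Its window (chr7:30650001-30651000, TSS at 30650317) held 5.77, 5.05 and 5.55 RPM (10, 10 and 21 reads) in nascent DMSO EdU libraries and 0.47, 0 and 1.81 RPM (1, 0 and 6 reads) with DRB. Triptolide libraries held 3.13, 1.36 and 1.26 RPM. The 2 h DMSO libraries held 12.87, 10.43 and 13 RPM. With DRB they spread widely, from 4.37 through 9.33 to 11.31 RPM, so that the highest overlapped with DMSO. With triptolide they held 2.30, 2.17 and 0.53 RPM, no higher than in nascent triptolide chromatin.

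**Figure D1:**
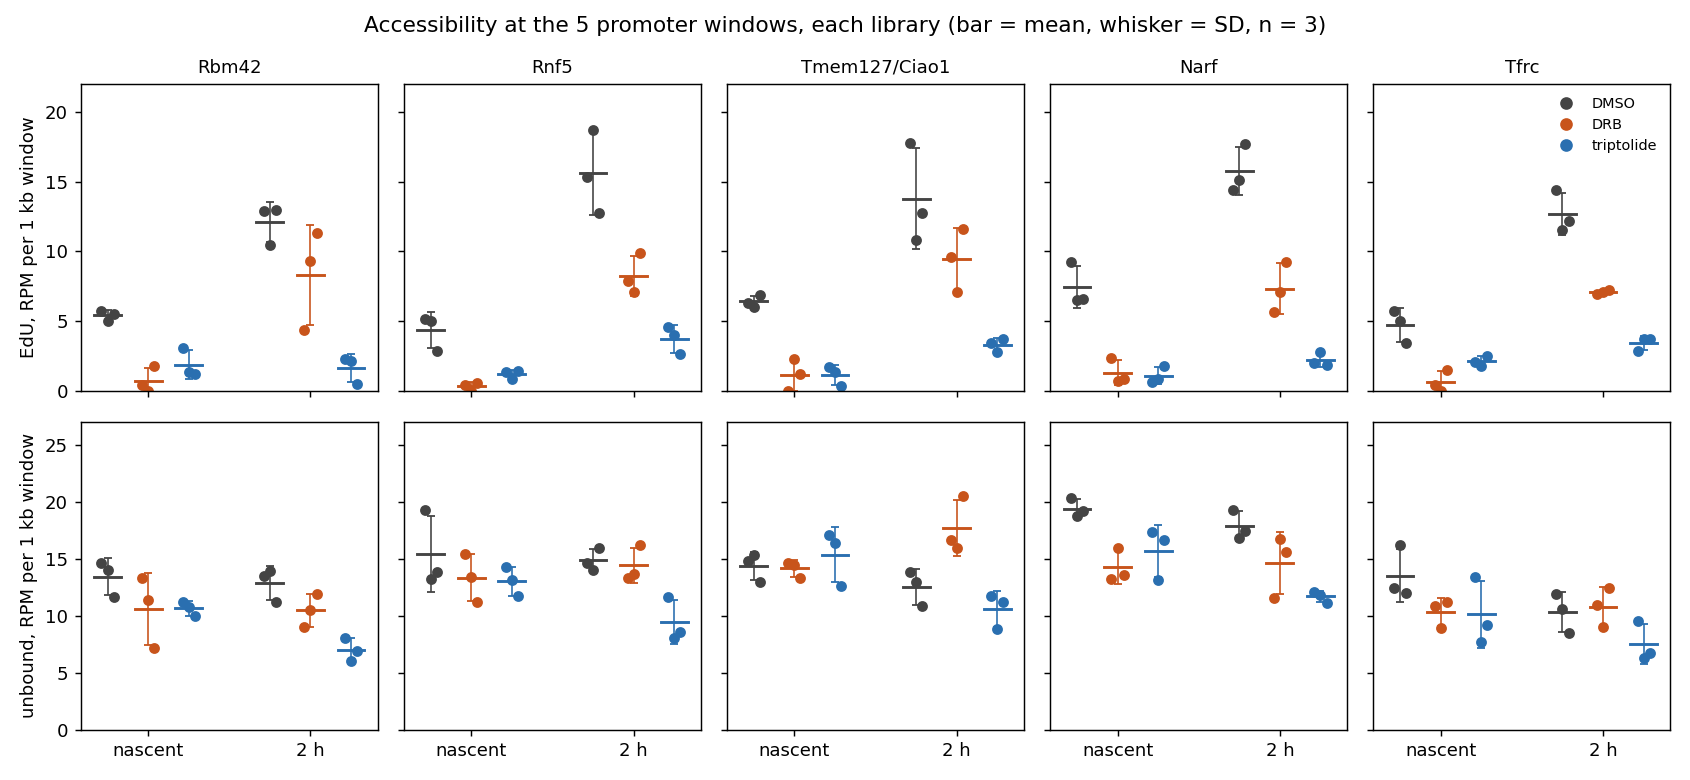
Levels (RPM per 1 kb window) of the 5 promoter windows in every library, EdU fraction above and unbound fraction below, by time and drug; points are libraries, bars means and whiskers SD (n = 3). Nascent DRB libraries lie between 0 and 2.36 RPM and nascent DMSO libraries between 2.91 and 9.22 RPM, while the unbound groups lie much closer together.

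On the log2(RPM + 1) scale, which understates the change at low levels, the nascent DRB minus DMSO difference was -2.01 for Rbm42, -1.98 for Rnf5, -1.93 for Tmem127 and Ciao1, -1.90 for Narf and -1.87 for Tfrc, with standard errors of 0.31 to 0.33 and a median of -0.18 over the 29799 TSSs tested. The comparison these values come from chose the genes. DRB libraries lay below all DMSO libraries at 5 of 5 windows and at 13.8% of all TSSs, and limma called 3.37% of all TSSs lower. By the limma p of this comparison the 6 stand at ranks 1 to 6 among coding genes, with Mllt1 next and N4bp2l2 at rank 8. Ranked by the size of the difference they stand between 1 and 12, with Mllt1, Smim4, Rplp1, Gpatch2l, Borcs8 and Ercc3, the gene of XPB itself, interleaved. At ranks 13 to 17 by size were Bphl at -1.85, Appl1 at -1.84, Spata2l at -1.83, N4bp2l2 at -1.82 and Myadml2 at -1.80. The neighbouring values differ by less than their standard errors. Scaled to background windows, the median of the 5 windows was -1.91 in place of -1.93.

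Triptolide in nascent chromatin was measured against the same DMSO libraries, so it is given beside the DRB values and not as separate evidence. The triptolide differences were -1.20 for Rbm42, -1.24 for Rnf5, -1.85 for Tmem127 and Ciao1, -2.01 for Narf and -0.86 for Tfrc. Triptolide libraries lay below all DMSO libraries at 5 of 5 windows and at 22.2% of all TSSs, with 11.6% of all TSSs called lower.

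Chromatin 2 h after the pulse came from libraries that had no part in the choice, and asks whether the promoters were still less accessible after DRB. The standard errors of the main fit draw on all EdU groups, so they include the nascent libraries that chose the genes. All 5 windows had lower means with DRB, at 46.7% (Narf) to 68.9% (Rbm42) of DMSO, but none passed the threshold after adjustment. The differences were -1.02 for Narf (SE 0.31, 95% interval -1.63 to -0.41, limma, Benjamini-Hochberg adjusted p = 0.080), -0.83 for Rnf5 (-1.45 to -0.22, adjusted p = 0.18 by limma) and -0.75 for Tfrc (-1.36 to -0.14, limma adjusted p = 0.25). Narf, Rnf5 and Tfrc were the 3 windows with an unadjusted limma p under 0.05, as were 10.4% of all TSSs in the lower direction, and the 3 at which every DRB library was below every DMSO library, as at 15.7% of all TSSs. For Rbm42 the difference was -0.57 (-1.21 to 0.08, limma adjusted p = 0.48) and for Tmem127 and Ciao1 -0.50 (-1.12 to 0.12, limma adjusted p = 0.55). So 0 of 5 windows were called, where limma called 0.621% of all TSSs lower and 0.201% higher, with a median of -0.12. With only the 2 groups compared in the fit, limma called Narf (adjusted p = 0.00046), Rnf5 (adjusted p = 0.0056) and Tfrc (adjusted p = 0.022). Scaled to background windows it called Narf and Rnf5, and limma-voom on the recovered reads, or 1 kb either side of the TSS, called Narf alone.

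Triptolide lowered all 5 windows at 2 h, to 13.8% (Rbm42) to 27.1% (Tfrc) of DMSO. Narf fell by 2.38 on the log2 scale (SE 0.31, limma, Benjamini-Hochberg adjusted p = 1.9e-10) and Rbm42 fell by 2.37 (limma adjusted p = 1.9e-09). Rnf5 fell by 1.81 (limma adjusted p = 9.6e-07), the Tmem127 and Ciao1 window fell by 1.75 (limma adjusted p = 2.6e-06) and Tfrc fell by 1.62 (limma adjusted p = 9.2e-06). The calls, 5 of 5 where 28.6% of all TSSs were called lower, held under every alternative run, the largest adjusted p being 0.013 (Tfrc, limma-voom). Triptolide libraries were below all DMSO libraries at each window, as at 37.5% of all TSSs. Relative to the median TSS the falls were 1.26 to 2.02.

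The 2 drugs were also compared directly at 2 h, a test added after both sets of values had been seen. Triptolide was lower than DRB by 1.80 at Rbm42 (limma adjusted p = 2.1e-05), by 1.36 at Narf (limma adjusted p = 0.00064), by 1.25 at Tmem127 and Ciao1 (limma adjusted p = 0.0023), by 0.97 at Rnf5 (limma adjusted p = 0.019) and by 0.87 at Tfrc (limma adjusted p = 0.038). That made 5 of 5 windows, beside 14.8% of all TSSs. The call at Tfrc was lost when any 1 of the 6 libraries was left out (limma adjusted p = 0.069 to 0.14), with a pseudocount of 0.5 (adjusted p = 0.075) and with 1 kb either side of the TSS (adjusted p = 0.20), and that at Rnf5 without the third DRB library (limma adjusted p = 0.11) or the third triptolide library (limma adjusted p = 0.13). With limma-voom the call was kept at Rbm42 alone, and centred on the median TSS at Rbm42, Narf and the shared window.

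**Figure D2:**
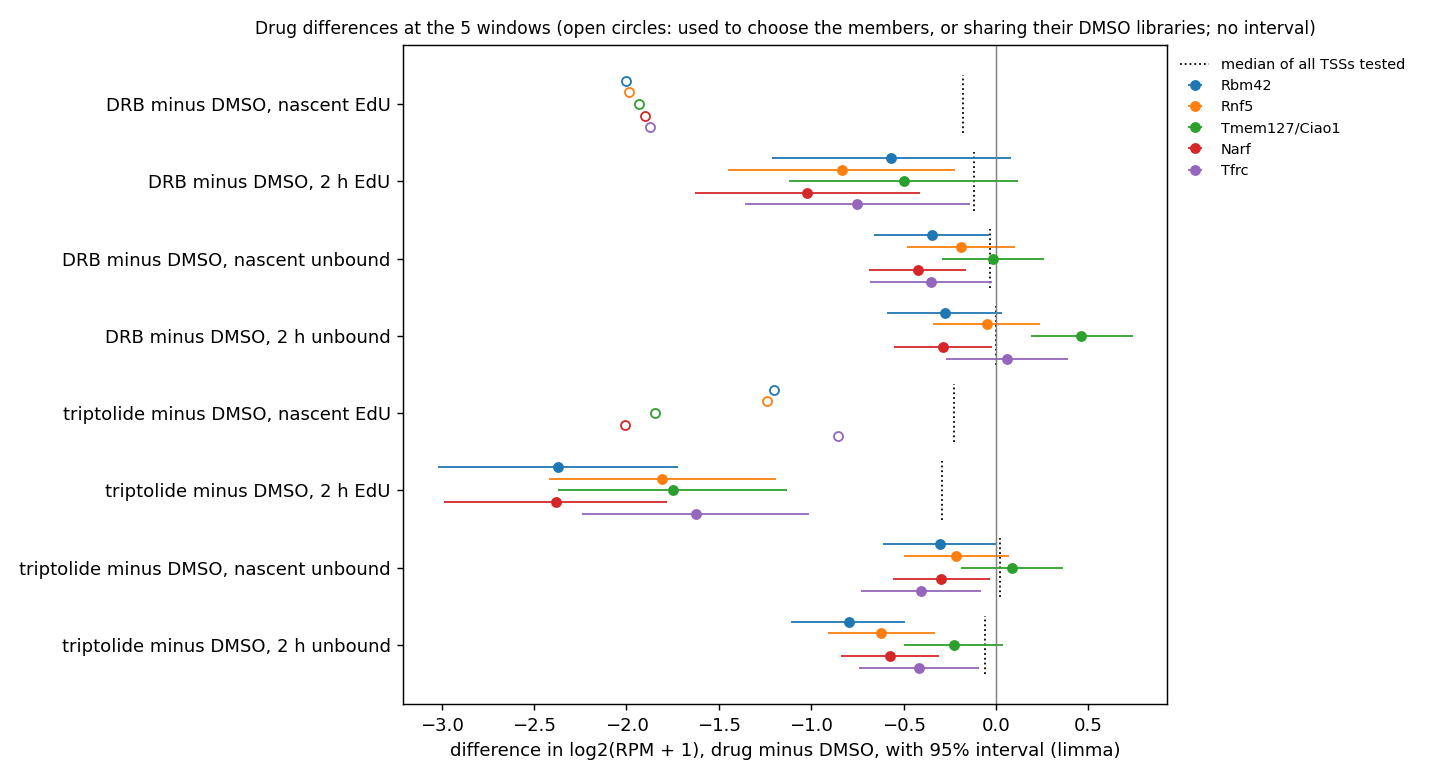
Difference in log2(RPM + 1) between drug and DMSO at the 5 windows, for each time and fraction, with the 95% interval from limma; the dotted line is the median of all TSSs tested, and open circles are the values used for the choice or sharing its DMSO libraries. At 2 h the DRB points lie between -1.02 and -0.50 and the triptolide points between -2.38 and -1.62.

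Maturation, the change from nascent to 2 h chromatin, was positive at all 5 windows with DMSO (0.97 to 1.64) and with DRB (1.87 to 2.79), given without a test since the nascent libraries chose the genes. Neither triptolide group entered the choice, though the shared standard errors draw on the libraries that did. With triptolide Rnf5 rose by 1.07 (SE 0.31, limma, Benjamini-Hochberg adjusted p = 0.0097) and the Tmem127 and Ciao1 window rose by 1.06 (limma adjusted p = 0.012). The difference was 0.62 for Narf (limma adjusted p = 0.17), 0.50 for Tfrc (limma adjusted p = 0.30) and -0.15 for Rbm42 (-0.80 to 0.50, limma adjusted p = 0.82). That is 2 of 5 windows, beside 14.1% of all TSSs. Both calls were lost when values were centred on the median TSS or fitted with limma-voom. Without the second nascent or the first 2 h triptolide library Rnf5 was no longer called (limma adjusted p = 0.055 and 0.067), nor was the shared window without the third nascent or the third 2 h library (limma adjusted p = 0.14 and 0.057).

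The unbound fraction shows these promoters in the bulk of the chromatin. Nascent DMSO unbound libraries held 13.4 ± 1.6 RPM at Rbm42, 15.4 ± 3.3 at Rnf5, 14.3 ± 1.3 at Tmem127 and Ciao1, 19.4 ± 0.84 at Narf and 13.5 ± 2.3 at Tfrc (mean ± SD, n = 3). With DRB the means were 73.5% (Narf) to 98.5% (Tmem127 and Ciao1) of these, and 0 of 5 windows were called by limma, beside 0.904% of all TSSs in either direction. The nearest to a call was Narf at -0.42 (-0.69 to -0.16, limma, Benjamini-Hochberg adjusted p = 0.11), where the DRB libraries held 13.18, 15.98 and 13.59 RPM and the DMSO libraries 20.33, 18.71 and 19.16 RPM. Narf and Tfrc were the 2 windows with DRB below all DMSO libraries, as at 10.3% of all TSSs, and Rbm42, Narf and Tfrc had an unadjusted limma p under 0.05, as did 13.3% of all TSSs in either direction. With triptolide the nascent unbound means were 74.9% (Tfrc) to 107% (Tmem127 and Ciao1) of DMSO. Limma called 0 of 5 windows beside 2.24% of all TSSs, with an unadjusted p under 0.05 at Narf and Tfrc, as at 14.5% of all TSSs. Under limma-voom too, 0 of 5 windows were called with either drug. Triptolide libraries lay below all DMSO libraries at 2 windows, Narf and Rbm42, as at 8.40% of all TSSs.

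At 2 h, triptolide lowered 3 of the 5 windows in the unbound fraction, beside 12.2% of all TSSs. Rbm42 fell by 0.80 (SE 0.15, limma adjusted p = 1.9e-04), Rnf5 by 0.62 (limma adjusted p = 0.0016) and Narf by 0.57 (limma adjusted p = 0.0016). Rbm42 held 13.47, 13.93 and 11.20 RPM with DMSO and 8.06, 6.05 and 6.87 RPM with triptolide, without overlap. At these 3 windows all triptolide libraries lay below all DMSO libraries, as at 21.1% of all TSSs. The Tfrc difference was -0.42 (limma adjusted p = 0.079), past the threshold without the third DMSO library (adjusted p = 0.038) or the first triptolide library (adjusted p = 0.017). For Tmem127 and Ciao1 it was -0.23 (limma adjusted p = 0.30). Whether the differences were larger in the EdU than in the unbound fraction was not tested.

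With DRB the 2 h unbound windows gave 0 of 5 calls, beside 1.48% of all TSSs, with an unadjusted limma p under 0.05 at Narf and at the shared window, as at 11.5% of all TSSs. The Tmem127 and Ciao1 window held 13.86, 12.97 and 10.81 RPM with DMSO and 16.63, 15.91 and 20.51 RPM with DRB, higher rather than lower. The groups did not overlap, as at 8.51% of all TSSs in the upward direction, and the difference was 0.46 (0.19 to 0.74, limma adjusted p = 0.071). It passed with limma-voom at 0.53 (adjusted p = 0.0024). Narf was the 1 window below DMSO in every DRB library, as at 8.41% of all TSSs, with a difference of -0.28 (-0.55 to -0.02, limma adjusted p = 0.37). The remaining differences were -0.28 for Rbm42 (limma adjusted p = 0.51), -0.05 for Rnf5 (limma adjusted p = 0.95) and 0.06 for Tfrc (limma adjusted p = 0.94).

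Windows 500 bp to either side show where the signal sits. In 2 h DMSO EdU chromatin the signal was narrow, with the TSS window at 26.0 times the mean of windows 2 to 5 kb away for Rbm42, 25.7 times for Narf, 21.6 times for Tmem127 and Ciao1, 16.2 times for Tfrc and 9.82 times for Rnf5. In nascent DMSO chromatin the ratios were 3.32, 14.8, 7.44, 5.63 and 2.26, and with DRB 0.985, 2.81, 1.81, 0.952 and 0.277. The Rnf5 flank holds another accessible site upstream, which raises the flank mean by which its TSS window is divided. That site held 6.87 RPM in 2 h DMSO, 4.21 RPM in nascent DMSO and 1.89 RPM in nascent DRB EdU libraries. The nascent ratios contain the TSS values that chose the genes and are a description. The windows 500 bp away overlap the TSS windows by 500 bp and share reads with them, so they too are a description. There the nascent DRB mean was 1.32 RPM at Rbm42 (500 bp downstream, flank 0.774) and 1.43 RPM at Rnf5 (500 bp upstream, flank 1.30). The flanks themselves were on the same level in both groups at Narf (0.505 RPM with DMSO and 0.480 with DRB), and 1.64 and 0.774 RPM at Rbm42.

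At Rnf5 the centre of the signal lies upstream of the TSS, toward Agpat1, which encodes an acyltransferase of phospholipid synthesis and starts 572 bp away on the opposite side. The window 500 bp upstream held 5.70 ± 0.59 RPM in nascent DMSO EdU libraries, 1.43 ± 0.92 with DRB and 2.17 ± 0.40 with triptolide, and at 2 h 28.7 ± 2.9, 16.1 ± 2.5 and 5.33 ± 1.6 RPM (mean ± SD, n = 3). The Agpat1 window, which adjoins that of Rnf5, differed by -0.91 with DRB in nascent chromatin (limma adjusted p = 0.083) and fell by 2.13 with triptolide at 2 h (limma adjusted p = 2.0e-08). Another start 2539 bp downstream was paired with Rnf5 by position without regard to strand, and lies near the 3' end of the gene. It is not taken as an Rnf5 promoter. Its nascent DRB difference was 0.01, not called by limma.

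**Figure D3:**
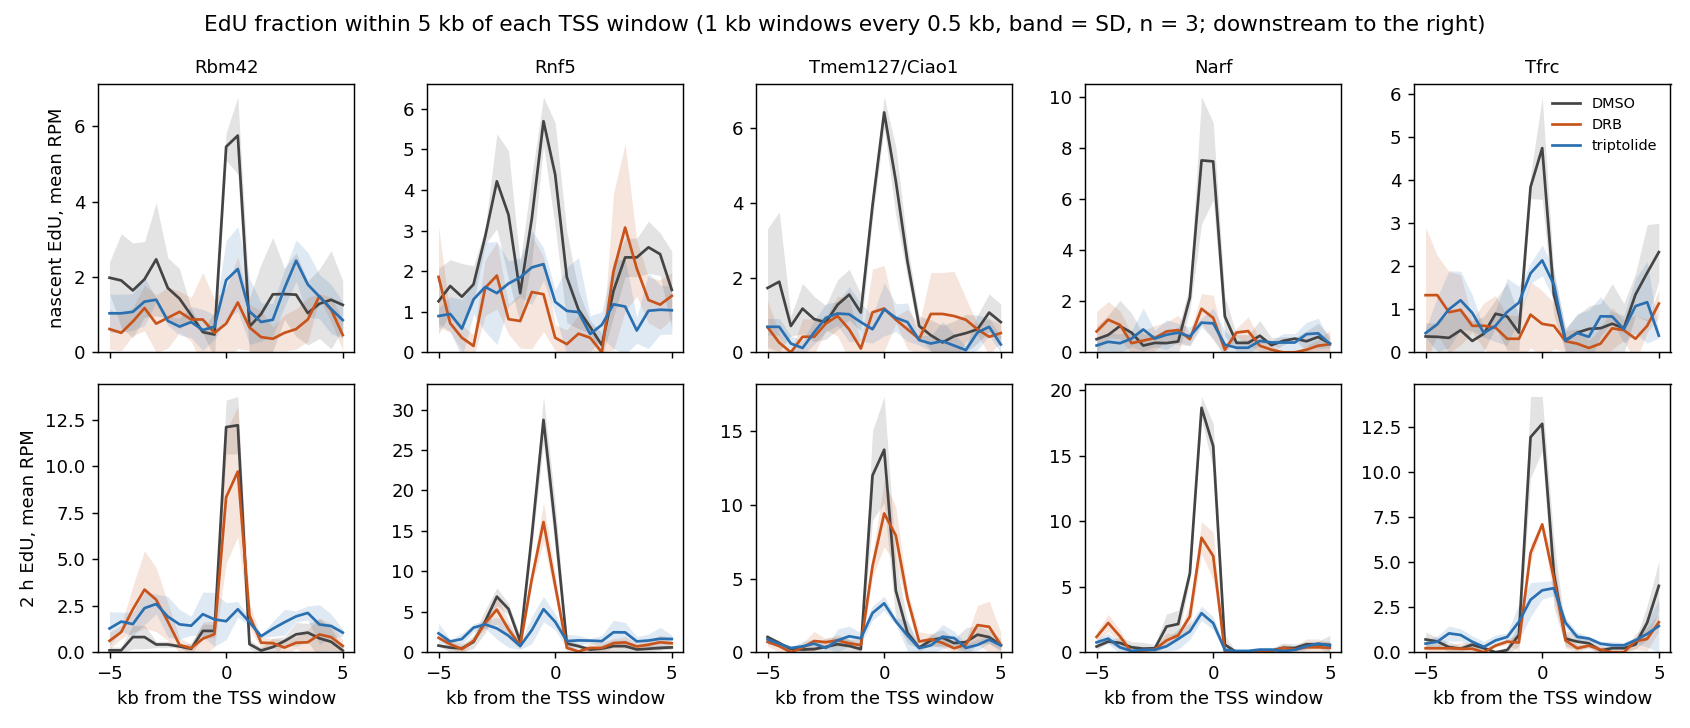
EdU fraction from 5 kb upstream to 5 kb downstream of each TSS window, in mean RPM per 1 kb window every 500 bp, by drug, nascent above and 2 h below; bands are SD (n = 3). With DRB the nascent TSS windows lie at 0.277 (Rnf5) to 2.81 (Narf) times their flanks, against 2.26 to 14.8 times with DMSO. The Rnf5 flank contains another accessible site upstream. At 2 h the DRB lines peak below the DMSO lines, and the triptolide lines have the lowest peaks. Away from the peaks the order varies.

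At Tmem127 and Ciao1 the shape of the peak differed between drugs. The window 500 bp to the Tmem127 side held 6.61, 5.16 and 4.70 RPM in 2 h DMSO unbound libraries, 10.19, 12.45 and 16.48 RPM with DRB and 9.44, 6.81 and 9.64 RPM with triptolide. On the Ciao1 side the same libraries held 10.88, 10.45 and 8.85 RPM with DMSO, 10.64, 10.10 and 11.79 RPM with DRB and 7.60, 4.79 and 6.33 RPM with triptolide. So DMSO libraries were higher on the Ciao1 side in each library, and both drug groups were on average higher on the Tmem127 side. In nascent unbound libraries the Tmem127 side held 4.94 ± 1.7 RPM with DMSO, 8.77 ± 0.86 with DRB and 10.9 ± 2.1 with triptolide, and the Ciao1 side 12 ± 1.9, 9.65 ± 0.58 and 10.9 ± 2.6 RPM. In the 2 h EdU fraction the Ciao1 side held 12 ± 3.0 RPM with DMSO and 5.86 ± 0.74 with DRB, and the Tmem127 side 4.18 ± 2.0 and 7.93 ± 1.9 RPM. Triptolide differed from DRB there, with 2.67 ± 0.50 RPM on the Ciao1 side and 2.10 ± 0.22 on the Tmem127 side. Nascent EdU libraries did not show the shape, with 3.93 ± 0.36 and 4.58 ± 0.91 RPM on the Ciao1 and Tmem127 sides with DMSO and 1.07 ± 1.2 and 0.874 ± 0.093 with DRB. This shape was noticed in the data and was not tested.

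Tfrc was examined in the same way. Its 2 h unbound level 500 bp downstream was 3.86 ± 1.1 RPM with DMSO and 6.07 ± 1.3 with DRB, and 500 bp upstream 9.37 ± 1.3 and 8.30 ± 1.1 RPM. At Narf the level 500 bp upstream, where its peak lies, was 20.6 ± 0.60 RPM with DMSO, 17.8 ± 3.2 with DRB and 13.5 ± 0.86 with triptolide in the same fraction. Rbm42 showed a site 3.5 kb upstream that had higher means with the drugs, except in nascent EdU libraries. It held 0.63 ± 0.21 RPM with DMSO, 2.80 ± 0.51 with DRB and 2.37 ± 1.1 with triptolide in 2 h unbound libraries. In nascent unbound libraries the levels were 0.51 ± 0.13, 1.67 ± 0.36 and 1.42 ± 0.12 RPM. In 2 h EdU libraries that Rbm42 site held 0.82 ± 0.63, 3.37 ± 2.1 and 2.37 ± 0.88 RPM. In nascent EdU libraries the order was the reverse, with 1.94 ± 1.0 RPM with DMSO, 1.18 ± 0.61 with DRB and 1.35 ± 0.64 with triptolide. This Rbm42 site too was picked out after its values were seen and has no test.

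**Figure D4:**
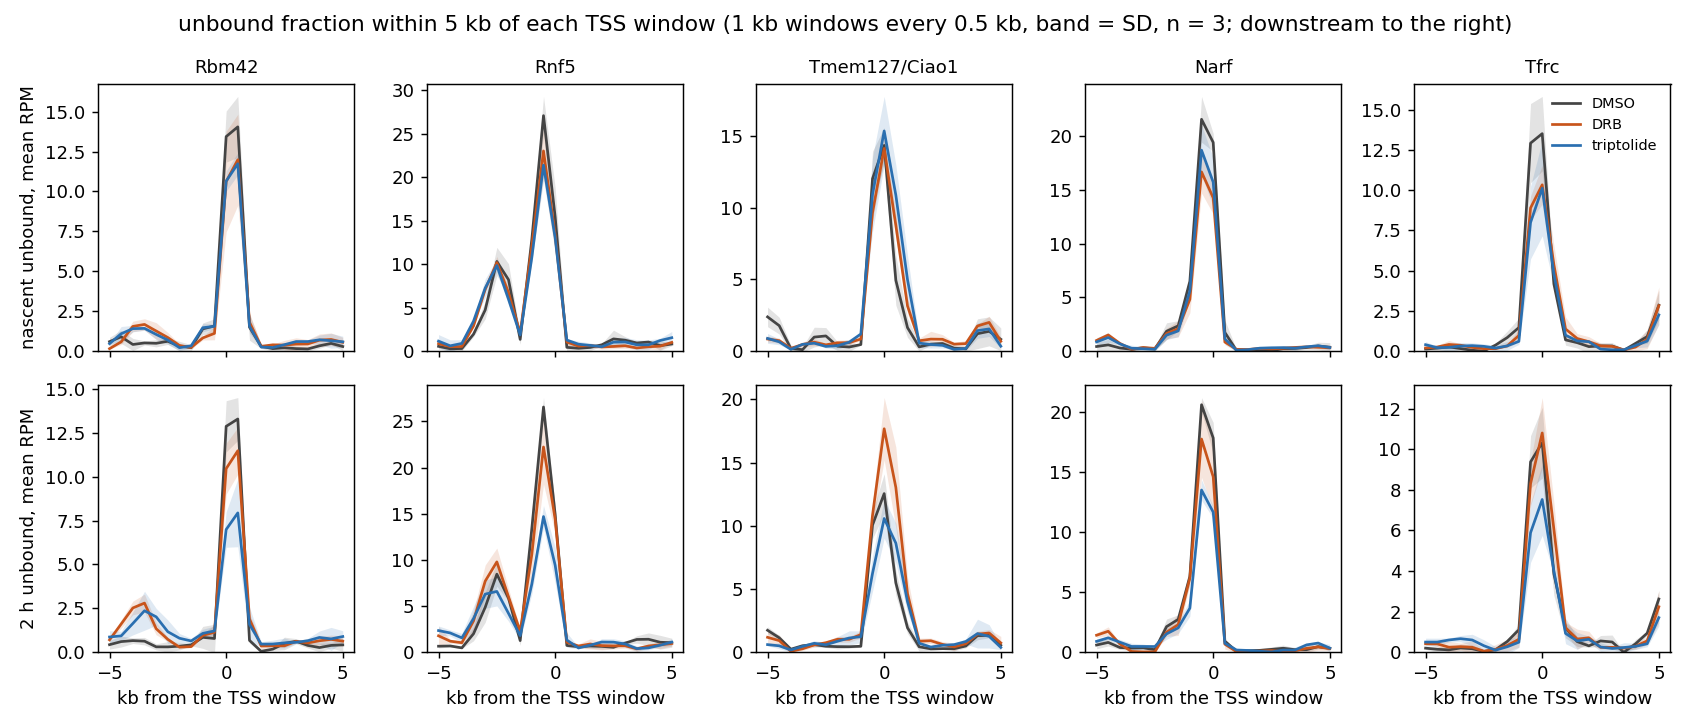
Unbound fraction over the same 10 kb regions as the EdU profiles (mean RPM per 1 kb window, band SD, n = 3), with each panel on its own vertical scale. At Tmem127 and Ciao1 the DRB and triptolide lines extend to the right, the Tmem127 side, of the DMSO line. At Rbm42 both drug lines rise 3.5 kb upstream, in nascent and in 2 h libraries.

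Promoters around the 5 windows were examined for comparison. Of 52 other TSSs within 100 kb, limma called 4 lower and 0 higher with DRB in nascent EdU chromatin (median -0.35, against -0.18 for all TSSs, of which 3.37% were called lower), and 2 lower and 1 higher at 2 h. The nascent count was 0 when centred on the median TSS, with limma-voom or with only the groups compared, 8 with 1 kb either side of the TSS, and 0 to 4 with 1 library left out, with 0 without the second DMSO library. The 2 lower at 2 h were not called when centred, with a pseudocount of 0.5, or without any 1 library other than the third DRB library. Other settings raised the count lower at 2 h, to 9 with background scaling and 14 of 51 with only the groups compared. It was 3 with limma-voom and 3 with 1 kb either side of the TSS. Narf stood in the region with most of these calls, 3 of 7 TSSs. Hexdc, a hexosaminidase gene, and Ogfod3 share a window that differed by -1.12 (limma adjusted p = 0.026) in nascent and by -1.27 (limma adjusted p = 0.022) in 2 h chromatin. Cybc1, a chaperone gene for the phagocyte oxidase, differed by -1.21 (limma adjusted p = 0.033) in nascent chromatin. Around Rbm42, 0 of 20 TSSs were called, around Tmem127 and Ciao1 0 of 6, around Tfrc 0 of 2 and around Rnf5 1 of 17, an unnamed start at -1.30 (limma adjusted p = 0.022). With triptolide at 2 h, 21 of the 52 were called lower and 1 higher, or 12 and 7 with limma-voom. The 1 higher with DRB at 2 h was Astl, a metalloprotease gene near Tmem127, at 1.77 (limma adjusted p = 0.0050), not called without the first DMSO or the third DRB library.

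The other genes of each member's pathway, listed with earlier results known, were mostly not called with DRB in nascent chromatin, where 3.37% of all TSSs were called lower. In cytosolic iron-sulphur assembly, Ciapin1 (electron transfer to the assembly complex) alone of 9 tested genes was lower, at -1.02 (limma adjusted p = 0.046), and the median was -0.51. In iron uptake and storage, where Tfrc belongs, Slc39a14, a metal importer, was the 1 of 11 lower, at -1.11 (limma adjusted p = 0.025). Among 16 genes of endoplasmic reticulum degradation, the pathway of Rnf5, 3 were lower, namely Vcp, the segregase that pulls proteins from the membrane, at -1.13 (limma adjusted p = 0.018), the lectin Os9 at -0.99 (limma adjusted p = 0.035) and the chaperone Hspa5 at -0.93 (limma adjusted p = 0.048). For mTORC1 and its lysosomal regulators it was Flcn, 1 of 18, at -1.41 (limma adjusted p = 0.0077). For prelamin processing and the lamina it was Banf1 at -1.33 (limma adjusted p = 0.012) and Lmna, which encodes prelamin A itself, at -1.11 (limma adjusted p = 0.010), 2 of 10. Of 18 other genes of RNA-binding motif proteins 0 were called. No gene of these lists was called higher with DRB in nascent chromatin. With DRB at 2 h limma called 0 genes in each of the 6 lists. With triptolide at 2 h it called lower 9 of 9, 4 of 11, 12 of 16, 10 of 18, 8 of 10 and 11 of 18, in the order given, where 28.6% of all TSSs were called lower. It also called 1 RNA-binding motif gene higher with triptolide at 2 h, where 812 of 29799 TSSs were called higher. The nascent calls depended on the setting, with 8 of the 82 genes lower as given, 3 when centred on the median TSS (Flcn, Banf1 and Lmna), 4 without a filter, 13 with background scaling, and 0 with limma-voom or only the groups compared. Leaving out 1 library gave 3 (first DMSO or first DRB library) to 10 (the third DRB library). The 0 at 2 h became 13 lower with background scaling, 15 with only the groups compared, 3 with 1 kb either side of the TSS, and 1 lower and 1 higher with limma-voom.

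Across the 12 group means, genes among the most like the average of the 5 windows were Cnot6 (Pearson r = 0.995), Rfx2 (0.994), and Suz12 and Nudt2 (0.993), among 17637 coding genes. The 12 points share libraries, so this is a description. Nudt2 went from 6.04 RPM in nascent DMSO EdU to 1.43 with DRB and 1.45 with triptolide, and Cnot6 from 6.08 to 1.90 and 2.23.

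In the deposited peak lists, called by the authors on combined replicates without drug, all 6 genes had a peak over the TSS already in nascent chromatin, and in the 30 min, 1 h, 2 h and steady-state lists. The nascent list has a peak within 1 kb of 36.1% of all TSSs and of 86.4% of the 997 other TSSs called lower with DRB. The nascent peaks at these promoters were 525 bp (Rbm42), 800 bp (Tfrc), 950 bp (Narf), 1100 bp (Rnf5) and 1250 bp (Tmem127 and Ciao1) long. In the ChIP list for S5P, the serine 5 phosphorylated polymerase II found at promoters early in transcription, only Tfrc had a peak, at chr16:32608651-32609375. That is 1 of 6 genes, beside 18.5% of all TSSs and 43.9% of the 997. The lists give positions without heights, so a promoter without a peak may lie just under the authors' threshold.

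A separate experiment without drugs added 100 EdU-labelled Drosophila S2 cells as a spike-in, with 2 libraries per time, and gives a log2 value for the 5 kb around each TSS. All 6 genes rose from nascent to 2 h chromatin. Rnf5 rose from 6.13 and 7.06 to 8.69 and 8.40, by 1.96 (SE 0.57, limma, Benjamini-Hochberg adjusted p = 0.0052), and its region also holds the Agpat1 start. Tfrc rose from 5.21 and 6.07 to 7.57 and 7.54, by 1.92 (limma adjusted p = 0.0031). Rbm42 rose by 1.78 (limma adjusted p = 0.0053), Narf by 1.62 (limma adjusted p = 0.014), Ciao1 by 1.53 (limma adjusted p = 0.018) and Tmem127 by 1.52 (limma adjusted p = 0.019), the last pair from regions that overlap almost wholly. Limma called 30.1% of all TSS regions higher, with a median of 0.79. The nascent libraries differed in their mean over all TSSs, 3.96 and 4.71, against 5.02 and 4.88 at 2 h, and 0 of the 5 windows kept the call without either of the 2 h libraries (adjusted p = 0.73 and 0.68).

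**Figure D5:**
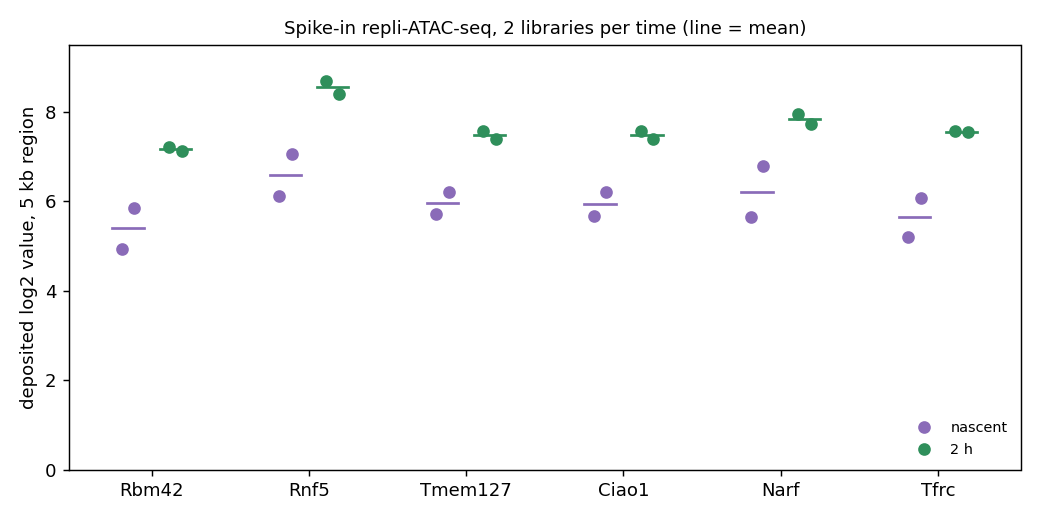
Deposited log2 values of the 5 kb regions around the 6 TSSs in the spike-in experiment, nascent and 2 h, 2 libraries each, with the mean as a line. Nascent values lie between 4.93 and 7.06 and 2 h values between 7.13 and 8.69, with no overlap for any gene.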

How the data were processed

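Per the labels, repli-ATAC-seq libraries were made from E14TG2a cells; trimming with Trim Galore 0.4.2, alignment with Bowtie2 2.2.6.2 and the build mm10 come from the submitters' processing notes, and the sources used here name no peak caller. The authors deposited log2(RPM + 1) values, per the file headers, in 1 kb windows every 500 bp (5451088 windows, 36 libraries). Undoing the log2 gave RPM, and dividing by the step of 1 read gave whole numbers, within 0.1, for 100% of values. For spike-in regions of 5000 bp the authors deposited log2 values; their scaling to S2 reads is not stated, so they are not read as RPM. The deposited peak lists hold positions only (unit: other), so the depth behind them is unknown.

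The window centred nearest each TSS was tested with limma 3.58.1 (R 4.3.3; trend, no replicate block) over all TSSs above 0 in at least 3 libraries of the fraction (spike-in: 2), with 6 groups in 1 fit, Benjamini-Hochberg adjustment and a threshold of 0.05. The fit was tested on simulated data. Symbols were paired with TSSs through RefSeq (GRCm38.p6) within 1000 bp. The strand of the RefSeq gene was not checked, so a symbol can mark a start near the 3' end of its gene. Background windows were 20000 drawn from those over 1000 bp from any peak and with a read in some library. TSSs without a peak were not excluded from them. The members and all lists were chosen with earlier results of these data known. Named genes were the 6 members, the 5 ranked next after them, the 5 with the most similar group means (1 of them is not reported here), and at most 3 called genes per list or neighbourhood. Alternatives were another pseudocount (0.5), no filter, centring on the median TSS, background scaling, limma-voom on recovered reads, a replicate block, only the groups compared, 1 kb either side of the TSS, and each replicate left out. The enhancer spike-in table was not used.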

Additional observations from a re-analysis of the deposited data

How the results depend on the processing

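The median of the 5 windows in the nascent DRB comparison was -1.43 with 1 kb either side of the TSS and -2.12 to -1.73 with replicates left out, and in the nascent triptolide comparison -0.91 and -1.48 to -1.13. Of 5 windows, limma called at 2 h with DRB in the EdU fraction 2 with background scaling, 1 with limma-voom, 3 with only the groups compared and 1 with 1 kb either side of the TSS. For triptolide from nascent to 2 h it called 1 without a filter, 0 when centred, 4 with background scaling, 0 with limma-voom and 1 to 2 with replicates left out. For triptolide against DRB at 2 h it called 3 when centred, 1 with limma-voom and 3 to 4 with replicates left out. In 2 h unbound libraries DRB gave 1 call with limma-voom, 1 with only the groups compared and 1 with 1 kb either side of the TSS, and triptolide gave 5 with background scaling and 3 to 4 with replicates left out. The spike-in rise gave 0 calls without a filter and 0 to 5 with replicates left out, where a lone library is assumed to vary like the others. The cause of these changes was not tested. Triptolide at 2 h in the EdU fraction kept 5 calls throughout.

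Deviations of libraries with the same replicate number gave correlations of -0.02 to 0.12. Counting error at low reads also keeps such correlations small, so they cannot settle whether the numbers mark a shared batch. The third library was the deepest in every group of the inhibitor experiment. The replicate block gave 0 calls of 5 in the spike-in comparison and moved no other count of the 5 windows by more than 1.5 times.

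Values that changed sign were all small. Rbm42 from nascent to 2 h with triptolide was 0.13 with background scaling, 0.32 with 1 kb either side of the TSS, -0.35 to 0.21 with replicates left out, and Tfrc was -0.13 with limma-voom. In nascent unbound libraries Tmem127 and Ciao1 with DRB were 0.10 with limma-voom, 0.11 with 1 kb either side of the TSS, and -0.09 to 0.03 with replicates left out, and with triptolide -0.02 with background scaling. In 2 h unbound libraries with DRB, Tfrc was -0.06 with background scaling and -0.06 to 0.18 with replicates left out, and Rnf5 0.00 without the third DMSO or the first DRB library.

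Over all TSSs, scaling moved the split of calls. With DRB in nascent EdU chromatin 1003 were lower and 84 higher, 289 and 117 when centred, 4 and 6 with limma-voom. At 2 h DRB gave 185 and 60, 54 and 74, and 272 and 287, and triptolide 8516 and 812, 4627 and 2449, and 2527 and 3498. Triptolide from nascent to 2 h gave 116 lower and 4204 higher, 727 and 1437, and 1199 and 387. Triptolide against DRB gave 4416 and 362, 1924 and 665, and 672 and 1356. Nascent values rest on 0 to 26 reads per window and library, which limits their precision.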
